A study of Drosophila melanogaster with 12 samples.

Results

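The genes described here belong to the system that counts X chromosomes for Sex-lethal (Sxl), the master switch of Drosophila sex determination. They were taken by name from the gene attribute of an annotation of transcription units on the dm6 build, and all 7 named genes were found, each in a unit of its own, among 17698 genes in 15991 units. The 3 X-linked signal elements among them were sisA, run and upd1, and the 4 autosomal factors were dpn, gro, da and emc. The label of an X dose signal therefore holds, by position, for 3 of the 7 genes, and the annotation placed the others on 4 different autosomal arms. A further X-linked signal element, scute (sc), was not among the 7 and is described below with the related genes.

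In early fly embryos, Sxl is switched on where there is a double dose of the X-linked elements relative to the autosomes, and stays off in males. sisA encodes a bZIP transcription factor, run encodes a Runt-domain transcription factor that is also a pair-rule gene, and upd1 encodes a secreted ligand of the JAK/STAT pathway. The autosomal factors read or oppose that dose. Deadpan (dpn) is a bHLH repressor, Groucho (gro) is the co-repressor recruited by such proteins, Daughterless (da) is the bHLH partner through which activators bind DNA, and Extramacrochaetae (emc) is an HLH protein without a DNA-binding basic region that blocks such partners. Sxl protein in turn represses msl-2 in females, which keeps the dosage compensation complex off their X.

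The series profiled S2 cells, a cultured male fly line, by mNET-seq, which sequences nascent RNA held by immunoprecipitated RNA polymerase II. Its 12 libraries formed 6 groups of 2 replicates: MSL1 RNAi, MOF RNAi and control RNAi (GST in the titles), each for total Pol II and for Pol II phosphorylated at serine 5 of the C-terminal domain. MSL1 is the scaffold and MOF the acetyltransferase of the dosage compensation complex, and the design text reads as RNAi of 2 days for the MSL1 and control groups but 4 days for the MOF groups. The annotation carried a value for 0 of the 12 libraries, and coverage was not analysed here. No level, RNAi effect, replicate error or sequencing depth is therefore given, and whether S2 cells transcribe these genes was not tested. The values below are annotated positions, which have no replicates. No p-value is given, because the genes were picked by name with earlier results of this annotation known and are not replicates of a condition.

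The unit of sisA (FBgn0003411) was the shortest of the 7, at 779 bp. It occupied X from 11321579 to 11322357, was transcribed from the minus strand and held a single transcript ID. It was longer than only 16.6% of the 2399 X units, whose median was 2242 bp. Upstream of its start, 1936 bp were free of any unit before l(1)10Bb, a protein-coding unit on the same strand. Beyond its end the next unit, Ir10a, an ionotropic receptor gene, lay 10370 bp away, a stretch longer than that after 94.5% of X units. No non-coding unit lay within 50 kb of sisA, and each of the other 6 genes had between 2 and 6. The share of all X units without such a neighbour was not counted, so whether sisA is unusual in this is not known.

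The unit of run (FBgn0003300) covered X from 20690670 to 20697321 (6652 bp, plus strand) and held 3 transcript IDs. It was longer than 78.5% of X units. Its start lay 37 bp from that of CR45610, a lncRNA gene of 314 bp on the other strand, transcribed away from run. This was closer than the nearest divergent start of 98.2% of X units. Without non-coding units the nearest divergent start lay 13607 bp away. At its other end run was the most isolated of the 7, with 37133 bp to CG1324, more than after 99.0% of X units.

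The unit of upd1 (FBgn0004956) covered X from 18305354 to 18309291 (3938 bp, minus strand), also held 3 transcript IDs, and was longer than 67.7% of X units. A pair of lncRNA units on its own strand, CR45608 and CR45609, preceded it, the nearer one ending 1210 bp before the upd1 start. Its nearest divergent start, that of CG6106, lay 49590 bp away, farther than for 90.5% of X units. After its end 12294 bp were free, which exceeded the free stretch after 95.2% of X units.

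Among the autosomal factors, dpn (FBgn0010109) spanned 3360 bp on the minus strand of 2R from 8228971 to 8232330, with 1 transcript ID. Within it lay the whole of CR44275, an antisense RNA unit of 1501 bp on the other strand, which covered 44.7% of dpn from 1534 bp after its start to 325 bp before its end. Upstream of dpn 4940 bp were free, the widest such stretch of the 7 and wider than that of 90.1% of 2R units. Downstream, CG34217 followed on the same strand after 243 bp.

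The unit of gro (FBgn0001139), on the plus strand of 3R from 26041736 to 26049911, was the longest at 8176 bp and held the most transcript IDs, 10, more than 98.2% of 3R units. Its last 181 bp, or 2.21% of its length, overlapped Exo84, an exocyst subunit gene transcribed toward it. It lay at the edge of the Enhancer of split complex, a cluster of Notch-responsive bHLH and Bearded-family genes. Its nearest unit on the same strand, E(spl)m8-HLH, ended 727 bp before its start, and 11 of the 30 other units within 50 kb were named for that complex.

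The unit of da (FBgn0267821) spanned 5124 bp on the plus strand of 2L from 10388105 to 10393228, with 3 transcript IDs. The RefSeq table listed 4 transcripts for da; it matched the number of IDs in the other 6 units, and the span in all 7. The last 362 bp of da, or 7.06% of its length, overlapped CR45789, an antisense RNA unit of 568 bp that starts beyond the end of da. Upstream, mRpS7, a mitochondrial ribosomal protein gene on the same strand, ended 452 bp before the da start, and behind it lay the divergent start of Cdk1, the mitotic kinase gene, at 1843 bp. With 39 other units within 50 kb, da lay in the densest surroundings of the 7, above 95.9% of 2L units.

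The unit of emc (FBgn0000575) spanned 4093 bp on the plus strand of 3L from 749400 to 753492, with 1 transcript ID. It lay whole inside a unit of 17810 bp on the other strand that holds hng3 and the tRNA gene tRNA:iMet-CAT-1-3, and that unit started beyond the end of emc and ran on past its start. All 4093 bp, the emc start included, were thus shared with a unit of the other strand. On its own strand emc stood apart: the nearest unit was a tRNA gene, tRNA:Ile-TAT-1-1, at 16010 bp, a wider gap than for 94.7% of 3L units. Only 1 other unit lay within 10 kb.

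**Figure D1:**
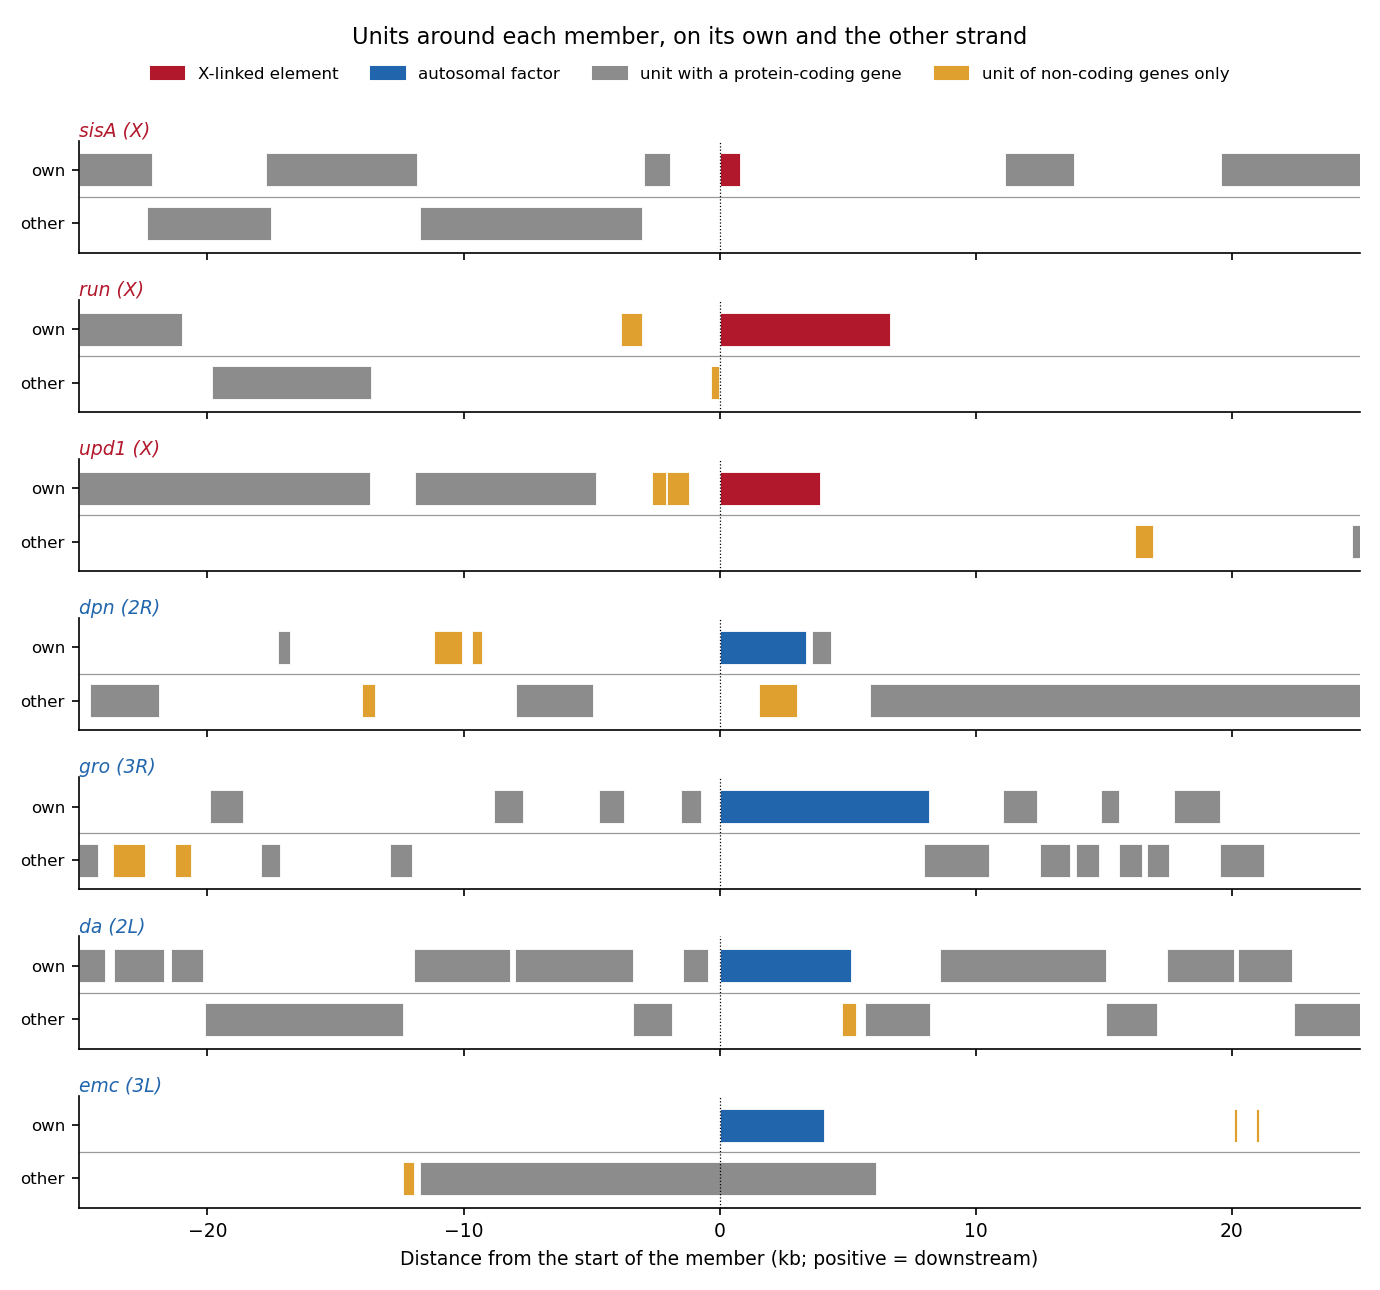
Annotated units around each of the 7 genes, drawn to scale as distance in kb from the start of the gene, with transcription of that gene from left to right and units of the other strand on the lower row. The stretch to the right of the 3 X-linked genes is empty for at least 10370 bp, whereas a unit overlaps each of the 4 autosomal genes on the lower row.

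In length the X-linked and autosomal genes overlapped. The X-linked units measured 779, 6652 and 3938 bp, with a median of 3938 bp, against 3360, 8176, 5124 and 4093 bp in the autosomal ones, with a median of 4608.5 bp. The difference of median log2 length was -0.22, X-linked minus autosomal, and its size depended on the summary: with means it was -0.84. Of the X-linked units only sisA was shorter than every autosomal one, while run and upd1 lay within the autosomal range. The difference without sisA was not computed, so its sign is not shown to hold beyond that gene. Over all units the order of the medians was the other way: the median X unit had 2242 bp, and the median unit of the 4 large autosomal arms had 1767 bp. Apart from sisA, all 6 exceeded the median of their arm, and each of the 4 autosomal units was longer than between 70.8% and 85.9% of the units of its arm.

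All 7 units held 1 gene, as did 92.7% of all units on X and 92.8% of those on the autosomal arms. The X-linked units held 1, 3 and 3 transcript IDs, against 1, 10, 3 and 1 in the autosomal ones. The medians were 3 and 2, but the means were 2.33 and 3.75, so the direction turned with the summary, and the 10 IDs of gro set the autosomal mean. A single transcript ID was found in 1 of 3 X-linked genes, where 48.2% of X units had 1, and in 2 of 4 autosomal genes, where 55.5% of autosomal units did. These counts are of annotated transcripts, and no start or exon of a transcript is given in the annotation.

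**Figure D2:**
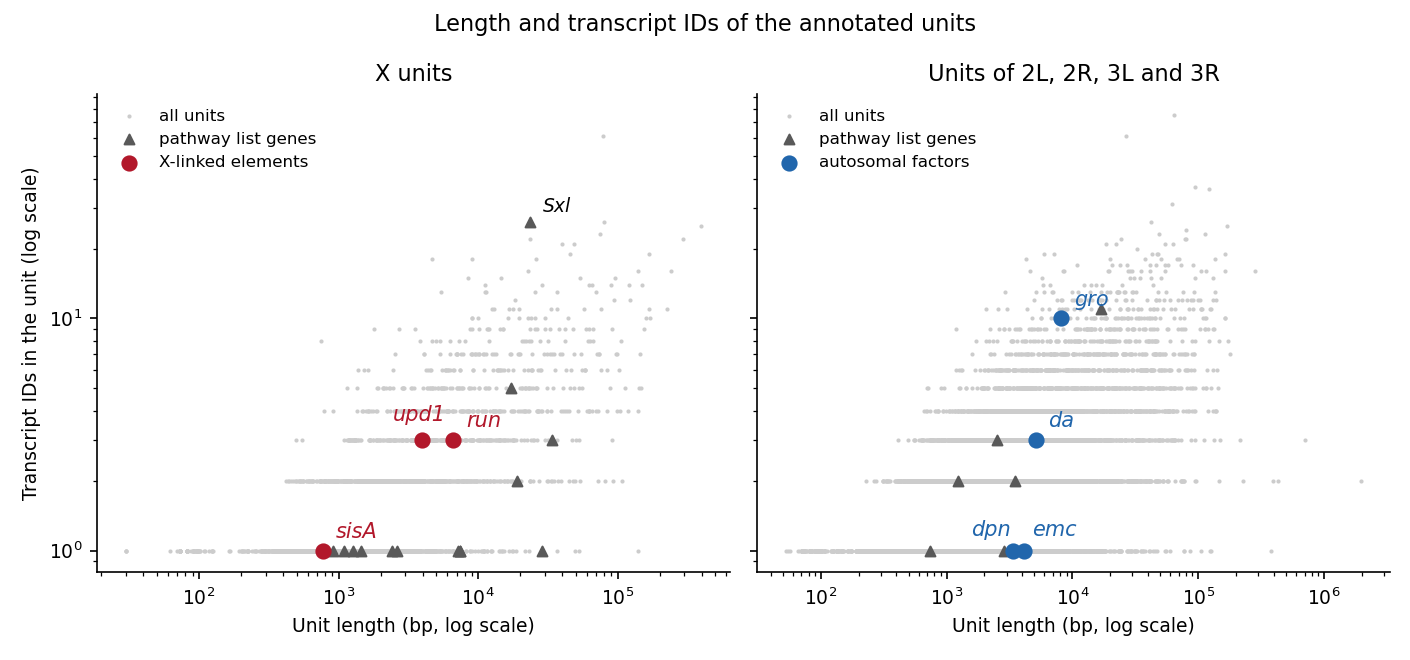
Length of each unit in bp (log scale) against its number of transcript IDs (log scale), for X units on the left and units of the 4 large autosomal arms on the right, with the 7 genes in colour, related genes as triangles and all units in grey. sisA sits at the short end with 1 transcript ID, gro at 8176 bp with 10, and Sxl, their target, at 23504 bp with 26.

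With units of every class counted, the groups stood apart in overlap with the other strand. It was found for 0 of 3 X-linked genes, where 38.6% of X units overlapped, and for 4 of 4 autosomal genes, where 39.5% of autosomal units overlapped. The X-linked element sc, outside these genes, lay whole inside a unit of the other strand, as described below. The 4 autosomal overlaps took different forms: ends that ran into each other at gro and da, a whole antisense unit within dpn, and the whole of emc within another unit. At dpn and da the only overlapping unit was an antisense RNA unit. Only gro and emc overlapped a unit with a protein-coding gene, so the contrast between the groups rests in part on non-coding units. The share of all units that overlap a protein-coding unit was not counted. Holding a whole unit of the other strand applied to 0 of 3 X-linked and 1 of 4 autosomal genes (7.67% of X units, 7.08% of autosomal units). Lying whole inside a unit applied to 0 of 3 and 1 of 4 (12.9% and 10.9%). The start itself was covered in 0 of 3 and 1 of 4 (18.0% and 16.2%), so emc was the only gene of the 7 with another unit across its start. With a minimum overlap of 100 bp the counts stayed at 0 of 3 and 4 of 4 (30.7% and 28.2% of units). The labels describe a coverage file with the strands added together, and in such a sum the signal of these shared bases cannot be assigned to either gene.

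Counting neighbours of both strands, the nearest unit lay 1936 bp from sisA, 36 bp from run and 1210 bp from upd1, and by definition at 0 bp from the 4 overlapping autosomal genes. The zeros restate the overlaps. The gaps of sisA and upd1 exceeded 92.6% and 90.1% of X gaps, but that of run exceeded only 44.4% and lay under the X median of 72 bp. On the same strand the groups overlapped: 1936, 3016 and 1210 bp in the X-linked genes, against 243, 727, 452 and 16010 bp in dpn, gro, da and emc. The widest of the 7 was thus that of the autosomal gene emc.

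Free space before and after the genes, a measure chosen after the surroundings were seen, was compared next. Before the start the groups overlapped, with 1936, 36 and 1210 bp in sisA, run and upd1, against 4940, 727, 452 and 0 bp in dpn, gro, da and emc. After the end they did not: 10370, 37133 and 12294 bp followed the X-linked genes, against 243, 0, 0 and 0 bp for the autosomal ones. The X-linked stretches exceeded those after 94.5%, 99.0% and 95.2% of X units. The X-linked element sc, outside these genes, had 0 bp after its end. The zeros of gro, da and emc restate their overlaps with the other strand, so for them this is not a separate result. Over all units the median was 169 bp (X) and 166 bp (autosomal arms), and no base was free after the end of 30.3% and 30.6% of them. Counting protein-coding units alone left 20757 bp after upd1 and 545 bp after da and moved none of the other 5.

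Divergent starts lie on opposite strands and face away from each other. With a limit of 1000 bp, 1 of 3 X-linked genes, run, had such a neighbour, against 32.5% of X units. This was so for 0 of 4 autosomal genes, against 33.5% of autosomal units. The distances were 3028 bp for sisA, 37 bp for run and 49590 bp for upd1, and 4941 bp for dpn, 12001 bp for gro, 1843 bp for da and 11921 bp for emc. With a limit of 500 bp the same gene was counted (22.6% of X units, 24.9% of autosomal units), and with 2000 bp da was added (40.2% and 41.4%). The unit of mRpS7 lies between da and Cdk1, so the stretch between those starts was not free of other units.

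The density of the surroundings overlapped between the groups. Within 10 kb there were 2, 2 and 3 other units around sisA, run and upd1, against 5, 11, 8 and 1 around dpn, gro, da and emc, where the medians over all units were 5 on X and 6 on the autosomal arms. Within 50 kb the counts were 16, 9 and 9, against 18, 30, 39 and 10, with medians over all units of 15 (X) and 19 (autosomal arms). At that distance sisA lay above its median, and dpn and emc lay below theirs.

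**Figure D3:**
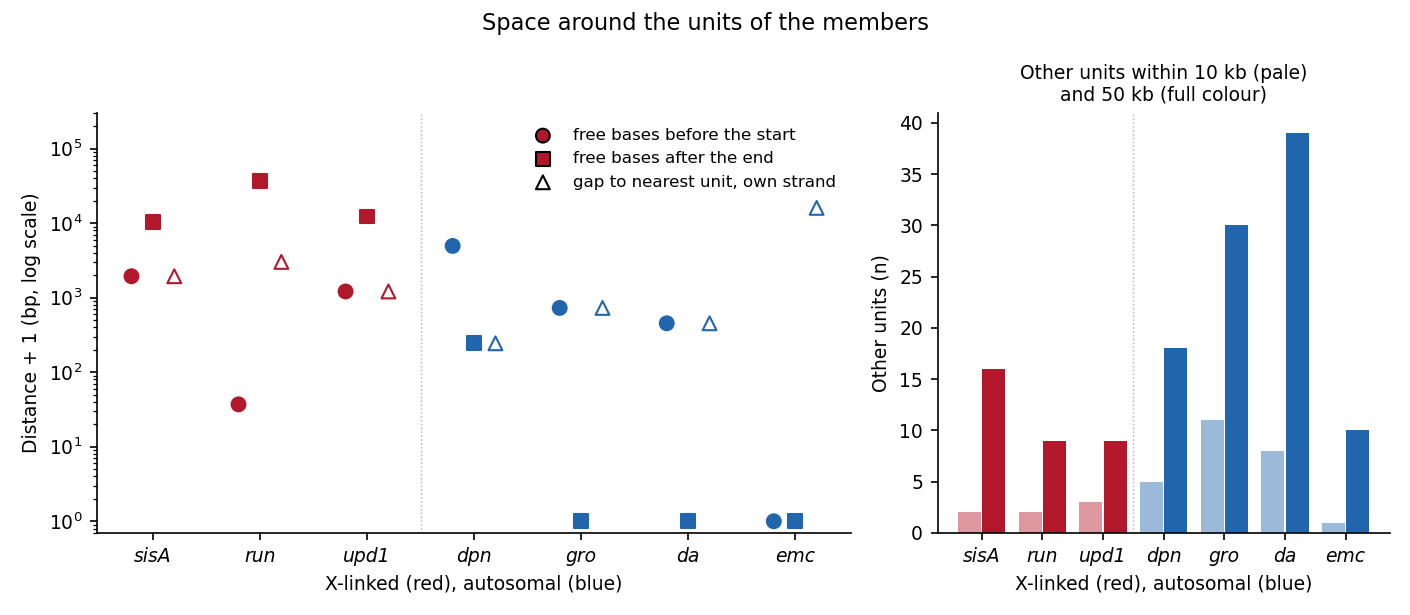
Left, bases free of any unit before the start (circles) and after the end (squares) and the gap on the same strand (open triangles), each plus 1 bp on a log scale, for the 3 X-linked genes in red and the 4 autosomal genes in blue. Right, other units within 10 kb (pale) and 50 kb (full colour). The squares of the X-linked genes lie above 10000 bp and those of the autosomal genes at 243 bp or at 0 bp.

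Related genes were set beside these 7 in 5 lists, and all 20 of them had a unit. Sxl, the target, spanned 23504 bp on X with 26 transcript IDs, those of its second gene, mir-4956, included, and overlapped no unit. The X-linked counterpart scute (sc), a bHLH activator that is itself an X signal element, departed from sisA, run and upd1. Its unit of 1438 bp lay whole inside a unit of 154151 bp on the other strand, that of CG32816 and 3 other genes, so it had no free base before or after it. With sc added, 1 of 4 X-linked genes would overlap the other strand, and the free space after the end would no longer separate X-linked from autosomal genes. The proneural bHLH relatives ac, l(1)sc and ase of the same complex lay inside the same unit.

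Of the 5 genes of Upd signalling, 4 lay on X and 0 overlapped the other strand (38.6% of X units and 39.5% of autosomal ones did). A divergent start within 1000 bp was present for 2 of the 5, close to the shares of 32.5% for X and 33.5% for autosomal units. These were dome, which encodes the receptor (290 bp from Ubqn), and hop, which encodes the JAK kinase (347 bp from Tim8). The ligand paralogues formed a cluster with upd1: upd3 lay 20757 bp away on the other strand with 1 unit between them, and upd2 lay 62069 bp away on the same strand with 5 between. The hop unit lay only 38572 bp from sisA, with 11 units between them. Stat92E, the transcription factor gene of the pathway, lay on 3R with 11 transcript IDs in 16989 bp.

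The Runt family was also clustered. RunxA lay 66896 bp and RunxB 123572 bp from run, with 6 and 8 units between, while lz, the other paralogue, lay 11387033 bp away. At 6652 bp the run unit was the shortest of the 4 paralogues, which measured 33522 bp for RunxA, 28601 bp for RunxB and 18988 bp for lz. The genes of the partner subunit, Bgb and Bro, lay 6916 bp apart on 3L. Each had a divergent start within 1000 bp, as did 33.5% of autosomal units. No gene of this list overlapped the other strand (38.6% of X units and 39.5% of autosomal ones did).

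Among the remaining relatives, the hairy-type repressor genes h and Hey overlapped no unit, and h had 24747 bp free before its start and 13449 bp after its end. Of 3 maternal and early regulators, zld, the pioneer factor gene of the early embryo, spanned 17084 bp on X, 907121 bp from run. The splicing factor gene snf started 259 bp from Cdk7, and her, a maternal zinc finger gene, started 484 bp from Trpgamma. The nearest divergent start of zld lay 29181 bp away. A divergent start within 1000 bp was thus present for 2 of the 3, where 32.5% of X and 33.5% of autosomal units had one. In all, 4 of 14 list genes on X overlapped the other strand (38.6% of X units did), and 0 of 6 on autosomes (39.5% of autosomal units). The 4 were sc, ac, l(1)sc and ase, all inside the CG32816 unit, so the count on X comes from 1 locus. No free base followed 5 of the 14 list genes on X (30.3% of X units) and 0 of the 6 on autosomes (30.6% of autosomal units). These 5 were the same 4 genes, whose zeros restate their overlap, and hop, which overlapped no unit but touched Pa1 at its end. Among the list genes the X-linked ones were thus not set apart from the autosomal ones by freedom from overlap or by having a free base after the end. The median free stretch after the end was 879.5 bp for list genes on X and 237.5 bp for those on autosomes. The ranges overlapped, at 0 to 15558 bp on X and 15 to 13449 bp on autosomes.

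The X-linked elements were spread along X. From sisA to Sxl the distance was 4223525 bp, from upd1 to Sxl 11207300 bp and from run to Sxl 13592616 bp. The closest pair of the 3 was upd1 and run, 2381378 bp apart with 317 units between them.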

How the data were processed

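The deposited data analysed here consisted of an annotation of transcription units for the whole series, written with rtracklayer 1.48.0 per the file headers. Its values are other than measurements: deposited start and end positions (1-based, dm6), with strand, symbols and FlyBase identifiers of genes and transcripts. For the rule by which the authors merged genes into units, the sources used here give nothing. The submitters' processing notes name cutadapt 2.8, STAR 2.7.4a and SAMtools 1.20, whose output was not analysed here.

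Members were found by exact symbol. The members and lists were chosen with earlier results of these data known, and all members and list genes are named. Gaps, overlaps (at least 1 bp), divergent starts (at most 1000 bp) and free flanks were computed against all units with Python 3.11.15, NumPy 2.4.6 and pandas 2.3.3, and ranks are within the gene's arm. On 150 simulated intervals gaps, overlaps and divergent distances had 0 mismatches with a pairwise loop. Spans and transcript IDs are those of the annotation. Gene classes, and the spans and transcript numbers set beside them, came from the RefSeq table of Release 6, matched by symbol or synonym. Promoter motifs and protein comparisons were planned and not made.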

Additional observations from a re-analysis of the deposited data

How the results depend on the processing

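No paired analysis was possible because the annotation holds nothing per library; leaving out replicates was likewise not possible. The X-linked minus autosomal difference in median log2 length (-0.22) kept its direction with RefSeq spans (-0.22), means (-0.84) and sc added (-0.94). RefSeq spans are identical and so were no real alternative, and sc, at 1438 bp, adds another short unit. Leaving out sisA, the only X-linked member shorter than every autosomal one, was not run. The direction is therefore not shown to hold without sisA. The difference in transcript IDs, 1 by medians, turned to -1.42 with means, because 1 unit, gro, holds 10; it was 0 with sc added and 0.5 with RefSeq transcripts, an alternative added after seeing the data. The gap difference, 10.24 as log2 of (gap plus 1 bp), moved to 1.75 on the same strand, where overlaps no longer count as 0; it was 12.24 against units of at least 1000 bp and 7.73 with sc added. The 4 members with an overlap became 3 against units of at least 1000 bp, which leaves out CR45789 at da. The 1 member with a divergent start became 2 at 2000 bp. Among 28 alternatives for single genes (ranks, divergent distances and free space), 14 moved the value. Those for ranks were planned, and those for divergent distances and free space were not. The share of shorter units ranged from 16.6% to 20.5% for sisA and from 67.7% to 88.8% over the other 6. Planned promoter motifs were not run.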
